A study of Mus musculus with 6 samples.

Results

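Bdh1, Bdh2, Oxct1, Acat1 and Slc16a1 are 5 genes of ketone body metabolism, and they were followed in the hearts of mice with and without the melanocortin receptor gene Mc4r. They were chosen by name from the 54532 rows of the deposited expression table. Bdh1 was picked because the study drew it among the genes that differed between the genotypes, so its difference is given as a description with no test. Bdh1 was 3.75-fold higher on average in the Mc4r KO hearts, while Oxct1 and Acat1, the enzymes of the following steps, were at nearly the same mean level in both genotypes. Slc16a1 was a little higher in every Mc4r KO heart, as were 14.1% of all genes tested, but did not pass the test. Its log2 fold change of 0.22 shrank to 0.03 with scaling outside the mitochondrial chromosome. Bdh2 was close to the limit of detection.

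The heart is one of the main consumers of ketone bodies, the small molecules that the liver makes from fatty acids when glucose is scarce. The monocarboxylate transporter MCT1 (Slc16a1) carries them across the plasma membrane, as it does lactate and pyruvate. In the mitochondria, 3-hydroxybutyrate dehydrogenase 1 (Bdh1) oxidises 3-hydroxybutyrate to acetoacetate, succinyl-CoA:3-ketoacid CoA transferase (Oxct1) activates acetoacetate with CoA, and acetoacetyl-CoA thiolase (Acat1) splits the product into acetyl-CoA for the citric acid cycle. Bdh2 is a cytosolic relative of Bdh1. The liver makes ketone bodies but lacks the transferase.

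The hearts came from male mice of 12 weeks, 3 of them WT and 3 Mc4r KO, and each mouse gave 1 library. The Mc4r KO mice were homozygous (Mc4r-/-) and the WT mice were their littermates. Both came from crosses of heterozygous parents on the C57B/6/N background and were fed standard chow without restriction. The gene was missing from the whole animal, so an effect that starts in the heart and one that starts elsewhere in the body cannot be told apart. On the tissue the labels disagree, with heart as the source and muscle in the title, and the study's text speaks of the left ventricle.

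Levels are given as FPKM, the fragments on a gene relative to its length and to a library size that had been scaled before deposit. The whole reads behind them were recovered from the values. Between 14691076 and 16047003 reads lay on genes in each library. The share of the summed FPKM on the mitochondrial chromosome ran from 47.1% to 59.3% in the WT libraries and from 43.0% to 46.6% in the Mc4r KO libraries. Mc4r itself had 2 reads in WT replicate 3 and 0 in the other 5 libraries, too few to check the genotypes. The 8 cardiomyocyte markers summed to 14250 to 15330 FPKM in WT and to 17230 to 18820 FPKM in Mc4r KO libraries. The 6 fibroblast markers summed to 185 to 189 FPKM in WT and to 136 to 155 FPKM in Mc4r KO libraries. In each Mc4r KO library, where Bdh1 was higher, this sum was thus lower and the cardiomyocyte sum higher in FPKM as deposited. The median log2 fold change of the cardiomyocyte list was 0.14, and -0.06 with scaling to the FPKM outside the mitochondrial chromosome. For the fibroblast list the medians were -0.34 and -0.53, and for all genes tested -0.01 and -0.19. The markers of a list did not all move alike. Mean Actc1 rose from 5178 to 7539 FPKM, while Pln fell from 581 to 455 FPKM. Mean Dcn fell from 119 to 82.4 FPKM, while Col1a1 rose from 15.4 to 20.2 FPKM. Fold changes were positive for 6 and negative for 2 cardiomyocyte markers, and for 2 and 4 fibroblast markers. In every Mc4r KO library 3 fibroblast markers were below (12.4% of all genes tested) and 3 cardiomyocyte markers above (14.1%). Limma called 0 of either list, with 3 and 2 at an unadjusted p under 0.05 (20.9%). The part of cell makeup in the results was not tested. WT replicate 3 stood apart, since its log2 levels correlated at 0.946 and 0.952 with WT replicates 1 and 2 but at 0.962 with Mc4r KO replicate 1 (Pearson, across 11297 genes, which are not independent replicates). In whole tissue, fewer cells of a type and less RNA per cell cannot be told apart.

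The sequences before the annotated starts are shown for Bdh1, the gene with the large difference, because it has 2 annotated RefSeq starts, and for Slc16a1, because its window is the most different from the others. All 3 are on the plus strand of GRCm38.p6, cover the 250 bases before a RefSeq start and are written 5′ to 3′ with each CG dinucleotide in capitals. The Bdh1 windows lie at chr16:31422047-31422296 and chr16:31428503-31428752, and the Slc16a1 window at chr3:104638414-104638663.
Bdh1, upstream start: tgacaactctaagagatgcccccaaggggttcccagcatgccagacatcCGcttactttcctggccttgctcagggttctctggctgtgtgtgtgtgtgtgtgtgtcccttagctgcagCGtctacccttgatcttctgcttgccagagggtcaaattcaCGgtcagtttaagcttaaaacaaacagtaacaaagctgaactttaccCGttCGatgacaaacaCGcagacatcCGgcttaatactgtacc
Bdh1, downstream start: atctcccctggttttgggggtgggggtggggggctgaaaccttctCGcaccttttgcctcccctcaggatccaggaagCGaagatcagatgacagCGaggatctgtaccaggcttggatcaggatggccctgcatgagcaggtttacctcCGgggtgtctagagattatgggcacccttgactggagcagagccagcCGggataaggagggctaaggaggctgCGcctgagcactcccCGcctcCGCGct
Slc16a1: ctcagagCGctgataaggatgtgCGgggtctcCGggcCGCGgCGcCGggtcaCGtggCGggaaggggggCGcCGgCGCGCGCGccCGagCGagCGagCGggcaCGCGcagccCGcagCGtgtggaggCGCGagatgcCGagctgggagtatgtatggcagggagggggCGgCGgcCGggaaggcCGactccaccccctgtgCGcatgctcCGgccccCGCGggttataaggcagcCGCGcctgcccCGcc

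The windows differed in base composition. GC made up 49.6% of the upstream Bdh1 window and 60.8% of the downstream one, with 7 and 9 CG dinucleotides. The Slc16a1 window held 76.4% GC and 37 CG dinucleotides, more than 97.8% of the 32851 RefSeq promoter windows of the same length. Oxct1 had 52.0% GC with 6 CG dinucleotides in its window at chr15:4026178-4026427, and Bdh2 had 48.0% GC with 5 at chr3:135280971-135281220. The medians of all windows were 52.4% GC and 6 CG dinucleotides. Acat1 was not in the table of windows, so 4 of the 5 genes matched it, with 5 windows in all.

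Short motifs were searched on both strands of each window. The E-box CACGTG was found in the Slc16a1 window alone among the 5, and 6.02% of all windows held it. The GC box GGGCGG was likewise found in the Slc16a1 window alone, and 32.7% of all windows held it. The oestrogen-related receptor element TNAAGGTCA, held by 1.14% of all windows, was in none of the 5, nor was the nuclear receptor half-site AGGTCA that is a part of it and was held by 14.0%. A pair of AGGTCA copies separated by 1 base (0.0335% of all windows) and TATAAA (12.4%) were not found in the 5 windows either. These are matches of letters in a short window and were not tested for binding.

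Bdh1 (ENSMUSG00000046598, chr16:31422280-31458901, plus strand) catalyses the first step of 3-hydroxybutyrate oxidation. Its level was 12.2, 14.3 and 5.56 FPKM in WT replicates 1, 2 and 3, from 670, 796 and 368 reads. In Mc4r KO replicates 1, 2 and 3 it was 39.5, 54.4 and 26.3 FPKM, from 2382, 3213 and 1640 reads. WT replicate 3 was the lowest of all and Mc4r KO replicate 2 the highest, and the groups did not overlap.

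The mean Bdh1 level was 10.7 ± 4.55 FPKM in WT and 40.1 ± 14.1 FPKM in Mc4r KO hearts (SD, n = 3 each). The log2 fold change was 1.94 with a standard error of 0.39, on the log2(FPKM + 0.1) scale used for every fold change here. The lowest Mc4r KO level was 1.84 times the highest WT level, and 14.1% of all genes tested had groups apart in this direction. Because Bdh1 was picked for its difference between these libraries, the gap is a description only. Without WT replicate 3 the ratio of the means was 3.03. Both groups were spread out, with a coefficient of variation of 42.6% in WT and 35.1% in Mc4r KO hearts, against 9.0% or less for Oxct1, Acat1 and Slc16a1. Among 11297 genes whose mean FPKM reached 1 or more, the Bdh1 fold change ranked 25th from the highest.

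In the order of levels within a library, Bdh1 stood at positions 2538, 2248 and 5141 of the table in WT replicates 1, 2 and 3. It stood at positions 878, 672 and 1305 in Mc4r KO replicates 1, 2 and 3. Bdh1 thus stood higher in the order in each Mc4r KO library than in any WT library.

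**Figure D1:**
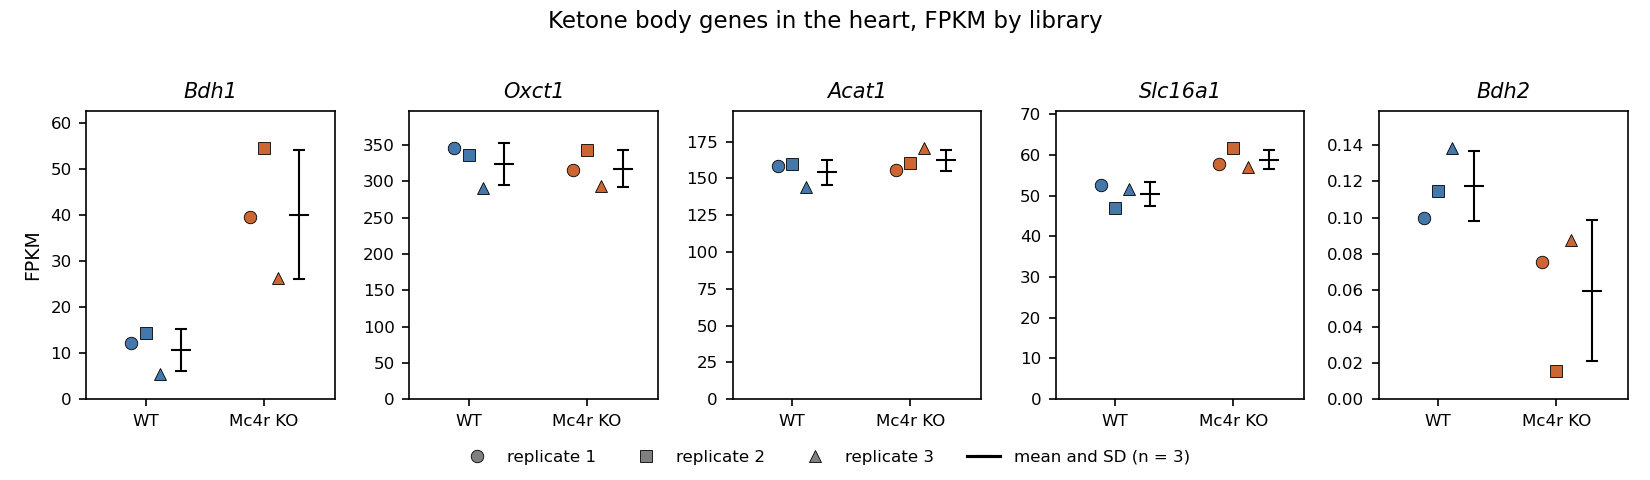
FPKM of the 5 ketone body genes (vertical axes, linear and starting at 0, with a different range for each gene) in the 3 WT and 3 Mc4r KO libraries (horizontal axes). Symbols mark the replicate number and bars the mean ± SD; the Bdh1 groups are apart (WT up to 14.3, Mc4r KO from 26.3 FPKM), while those of Oxct1 and Acat1 overlap.

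The annotation holds 4 protein-coding Bdh1 transcripts with separate starts on the plus strand, at 31422280, 31428748, 31429299 and 31436091 of chromosome 16. The deposited values are per gene, so the start in use was not measured. The antisense gene Gm15743 (chr16:31427876-31429776, minus strand) lies across the middle starts and shares 533 exonic bases with Bdh1, or 13.7% of its exonic length. Gm15743 had 10, 3 and 6 reads in WT replicates 1, 2 and 3 and 30, 34 and 16 reads in Mc4r KO replicates 1, 2 and 3. It was thus higher in every Mc4r KO library too, at below 1.2 FPKM in each. The sources do not say whether strand was used in counting, and without strand the reads of a gene and its antisense partner cannot be told apart.

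The atrial markers were uneven between the libraries, and WT replicate 3, the lowest for Bdh1, was the highest for them. The 4 atrial markers summed to 28.6, 95.2 and 747 FPKM in WT replicates 1, 2 and 3 and to 136, 6.29 and 43.7 FPKM in Mc4r KO replicates 1, 2 and 3. In the 3 libraries with less than 1 FPKM of Myl7, the atrial myosin light chain, Bdh1 was at 12.2 FPKM in WT replicate 1 and at 54.4 and 26.3 FPKM in Mc4r KO replicates 2 and 3. In the pair with Myl7 at 28.1 and 38.8 FPKM, Bdh1 was at 14.3 FPKM in WT replicate 2 and at 39.5 FPKM in Mc4r KO replicate 1. WT replicate 3 had Myl7 at 307 FPKM, with no Mc4r KO library near it. The part of atrial tissue in the Bdh1 difference was not tested.

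**Figure D2:**
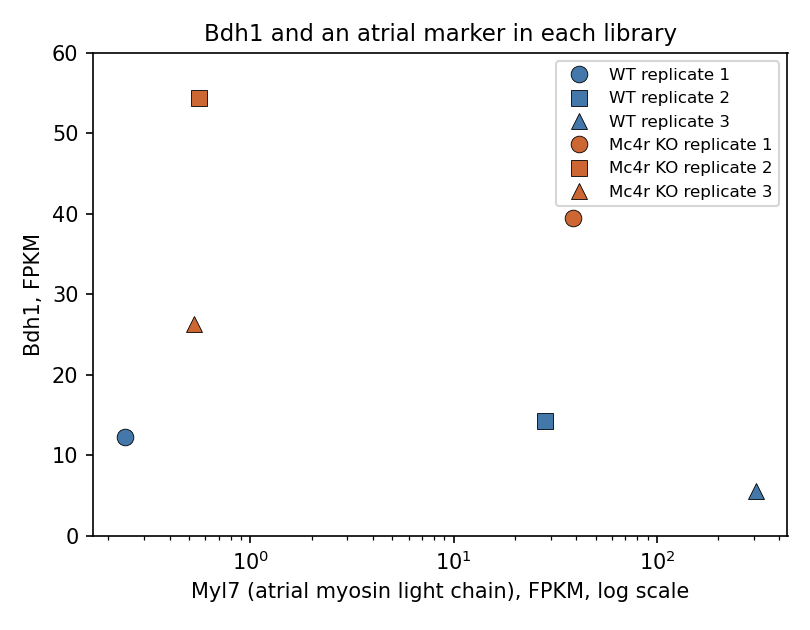
Bdh1 (vertical axis, FPKM, linear) against the atrial marker Myl7 (horizontal axis, FPKM, log scale), with 1 point per library. The 3 Mc4r KO libraries lie above the 3 WT libraries for Bdh1. WT replicate 3 has the highest Myl7 (307 FPKM) and the lowest Bdh1 (5.56 FPKM), and no Mc4r KO library is above 38.8 FPKM of Myl7.

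Markers of liver and fat, tissues in which ketone enzymes are also found, were at or near 0. The 4 hepatocyte markers summed to at most 0.211 FPKM in any library and albumin (Alb) was listed at 0 in all 6. The 5 adipocyte markers summed to between 0.467 and 1.02 FPKM in WT libraries and between 0.0283 and 0.328 FPKM in Mc4r KO libraries, with leptin (Lep) listed at 0 in all 6. The 5 erythroid markers summed to 4497, 859 and 6344 FPKM in WT replicates 1, 2 and 3 and to 1651, 663 and 620 FPKM in Mc4r KO replicates 1, 2 and 3. They were highest in WT replicates 1 and 3, and the part of red cell RNA in the Bdh1 difference or the others was not tested.

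The remaining members were tested with limma across 18035 genes. A call needed a log2 fold change beyond 0.75 in either direction together with an adjusted p under 0.05, and 83 genes met this, or 0.46% of those tested. Oxct1, Acat1 and Slc16a1 were tested and 0 of these 3 were called, with 1 of them at an unadjusted p under 0.05 by limma. That level was reached by 3761 or 20.9% of all genes tested. Limma voom on the recovered reads called 0 of the 3, and 314 of all 18035 genes. Of all genes tested, 14.1% had the 3 Mc4r KO values all above the 3 WT values, and 12.4% had them all below. Of the 3 tested members, 1 was above in this way and 0 were below.

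Oxct1 (ENSMUSG00000022186, chr15:4026383-4155344, plus strand), the transferase that commits acetoacetate to oxidation, was the most abundant of the 5 genes. Its level was 345, 336 and 291 FPKM in WT replicates 1, 2 and 3 and 316, 343 and 293 FPKM in Mc4r KO replicates 1, 2 and 3. The groups overlapped, and replicate 3 was the lowest in both. The means were 324 ± 29.1 and 317 ± 25.1 FPKM (SD, n = 3 each). On the log2 scale Oxct1 differed by -0.03, with a 95% interval from -0.29 to 0.23 and a limma adjusted p of 0.916, so the interval excluded a change of the size that a call needs. With scaling outside the mitochondrial chromosome the difference was -0.22, and with quantile normalization -0.24, both with adjusted p above 0.05 by limma. BC037032, on the opposite strand, shares 467 bases with the Oxct1 exons, or 12.6% of their length, and reached at most 1.23 FPKM in any library.

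Acat1 (ENSMUSG00000032047, chr9:53580522-53610382, minus strand) makes acetyl-CoA in the last step and also serves the breakdown of isoleucine. Its level was 158, 160 and 144 FPKM in WT replicates 1, 2 and 3 and 156, 160 and 170 FPKM in Mc4r KO replicates 1, 2 and 3. The groups overlapped, with WT replicate 3 the lowest and Mc4r KO replicate 3 the highest. The means were 154 ± 8.53 and 162 ± 7.36 FPKM (SD, n = 3 each). Limma gave a log2 fold change of 0.07, with a 95% interval from -0.13 to 0.28 and an adjusted p of 0.659. Its sign turned with quantile normalization and with scaling outside the mitochondrial chromosome.

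Slc16a1 (ENSMUSG00000032902, chr3:104638668-104658462, plus strand), which encodes the transporter, was at 52.6, 46.9 and 51.6 FPKM in WT replicates 1, 2 and 3. It was at 57.8, 61.6 and 57.1 FPKM in Mc4r KO replicates 1, 2 and 3. The groups did not overlap, and the lowest Mc4r KO library was 1.09 times the highest WT library. The means were 50.4 ± 3.03 and 58.8 ± 2.40 FPKM (SD, n = 3 each). The log2 fold change was 0.22, with a 95% interval from 0.03 to 0.42 and a limma adjusted p of 0.190, and it shrank to 0.03 with scaling outside the mitochondrial chromosome and to 0.04 with quantile normalization. The mitochondrial share of FPKM was higher in each WT library than in any Mc4r KO library, and its part in this difference was not tested.

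Bdh2 (ENSMUSG00000028167, chr3:135281221-135304426, plus strand) had only 6, 7 and 10 reads in WT replicates 1, 2 and 3 and 5, 1 and 6 reads in Mc4r KO replicates 1, 2 and 3. These gave up to 0.138 FPKM in WT and between 0.0155 and 0.0880 FPKM in Mc4r KO libraries. The Mc4r KO values were all below the WT values in FPKM, while the lowest WT library and the highest Mc4r KO library had the same 6 reads. Its mean of 0.0887 FPKM was under the minimum of 0.1, so it was not among the genes tested. Without that minimum its log2 fold change was -0.47 with a standard error of 0.29 and a limma adjusted p of 0.517. When Mc4r KO replicate 2 was left out it passed the minimum, with a log2 fold change of -0.26 and a limma adjusted p of 0.837. A difference was not detectable at this depth.

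From high to low, the order of levels was Oxct1, Acat1, Slc16a1, Bdh1 and Bdh2 in each of the 6 libraries. Neighbours in this order did not overlap over the libraries except for Slc16a1 and Bdh1, since Bdh1 in Mc4r KO replicate 2 (54.4 FPKM) was above Slc16a1 in each WT library. Bdh1 was at 0.232, 0.304 and 0.108 of the Slc16a1 level in WT replicates 1, 2 and 3 and at 0.682, 0.883 and 0.460 in Mc4r KO replicates 1, 2 and 3. Against Oxct1 it was at 0.0354, 0.0425 and 0.0191 in WT and at 0.125, 0.159 and 0.0897 in Mc4r KO libraries. These ratios within a library do not depend on its scaling, and their means were 3.15-fold and 3.85-fold higher in Mc4r KO hearts. For Acat1 as the partner the factor was 3.64.

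Ratios among the other enzymes and the transporter differed less between the genotypes. Acat1 to Oxct1 was 0.477 ± 0.0189 in WT and 0.514 ± 0.0598 in Mc4r KO hearts (SD, n = 3 each, exact permutation test, two-sided, p = 0.5). Slc16a1 to Oxct1 was 0.157 ± 0.0191 and 0.186 ± 0.00809 (exact permutation p = 0.1, the smallest that 3 against 3 can give, and 0.3 after adjustment over the 3 ratios tested). Acat1 to Slc16a1 was 3.07 ± 0.307 and 2.76 ± 0.198 (exact permutation p = 0.2, adjusted 0.3). With this number of mice a p below 0.05 cannot be reached by the permutation test.

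The wider ketone list held 17 more genes for synthesis, transport and sensing, and 9 of them were tested. Limma called 0 of the 9, with 3 at an unadjusted p under 0.05 against 20.9% of all genes tested. Voom called 1 of the 9 (314 of all 18035 genes). Of the 9 fold changes, 6 were positive, with a median of 0.09 against -0.01 for all genes tested. With scaling outside the mitochondrial chromosome the medians were -0.07 and -0.19. Of the 8 genes not tested, Oxct2a, Oxct2b, Ffar3, Slc5a8 and Slc5a12 were listed at 0 in all 6 libraries, and Acat3, Hcar2 and Hmgcll1 had at most 6 reads in any library.

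**Figure D3:**
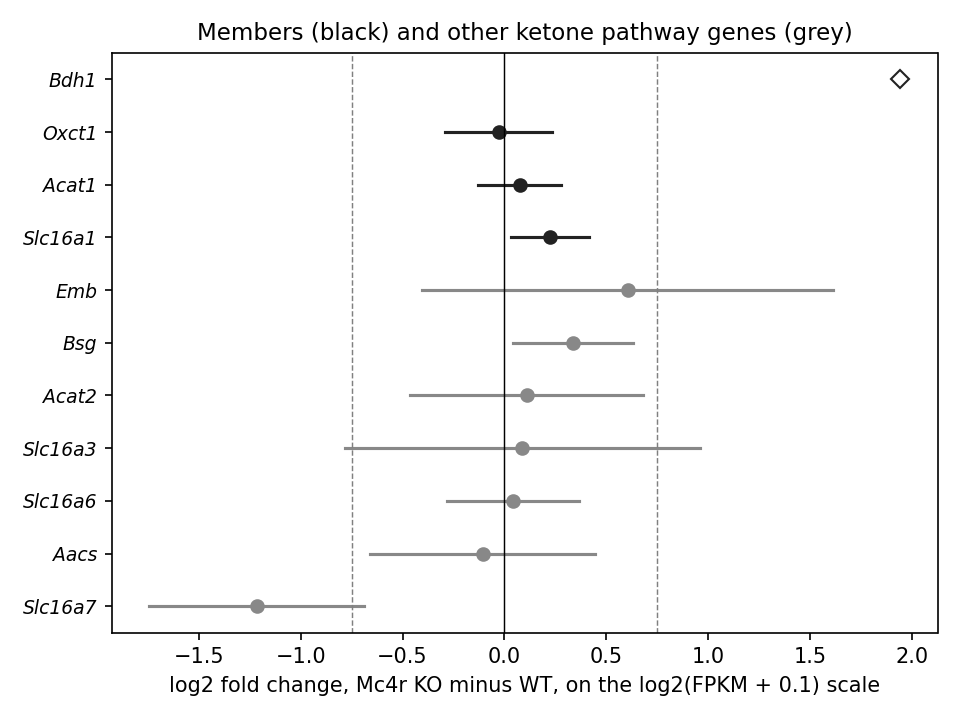
Log2 fold change from WT to Mc4r KO (horizontal axis, log2(FPKM + 0.1) scale) of the members in black and of 7 other ketone pathway genes tested in grey. Circles carry 95% limma intervals, the open diamond is Bdh1 without interval or test, and dashed lines mark 0.75 in either direction; Slc16a7 lies furthest down at -1.22 and Bdh1 furthest up at 1.94.

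Slc16a7, which encodes the related transporter MCT2 with a high affinity for its substrates, had the largest fold change of this list. Its level was 0.988, 0.847 and 0.808 FPKM in WT replicates 1, 2 and 3, from 165, 144 and 163 reads. In Mc4r KO replicates 1, 2 and 3 it was 0.403, 0.261 and 0.311 FPKM, from 74, 47 and 59 reads. The groups did not overlap, and the highest Mc4r KO level was well below the lowest WT level. Slc16a7 had a log2 fold change of -1.22 with a standard error of 0.22 and a limma adjusted p of 0.0647, so it missed the threshold. It passed with voom on the recovered reads (adjusted p = 0.00749), with array weights (0.035), among protein-coding genes only (0.0302) and without WT replicate 3 (0.0357). Over all alternatives the limma adjusted p ran from 0.00749 to 0.211. The level of Slc16a7 was far below that of Slc16a1 in every library.

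Bsg (basigin), the chaperone that MCT1 needs to reach the membrane, was at 436, 530 and 502 FPKM in WT and at 582, 690 and 585 FPKM in Mc4r KO replicates 1, 2 and 3. The groups did not overlap, as for Slc16a1, and the log2 fold change of 0.34 had a limma adjusted p of 0.193. It was 0.14 with scaling outside the mitochondrial chromosome and 0.12 with quantile normalization. Emb (embigin), another chaperone of these transporters, was between 0.0807 and 0.442 FPKM, with a log2 fold change of 0.61, a standard error of 0.43 and a limma adjusted p of 0.470. The transporters Slc16a3 and Slc16a6 had log2 fold changes of 0.09 and 0.04, and their groups overlapped.

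The cytosolic enzymes Acat2 and Aacs had log2 fold changes of 0.11 and -0.11, and their groups overlapped.

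**Figure D4:**
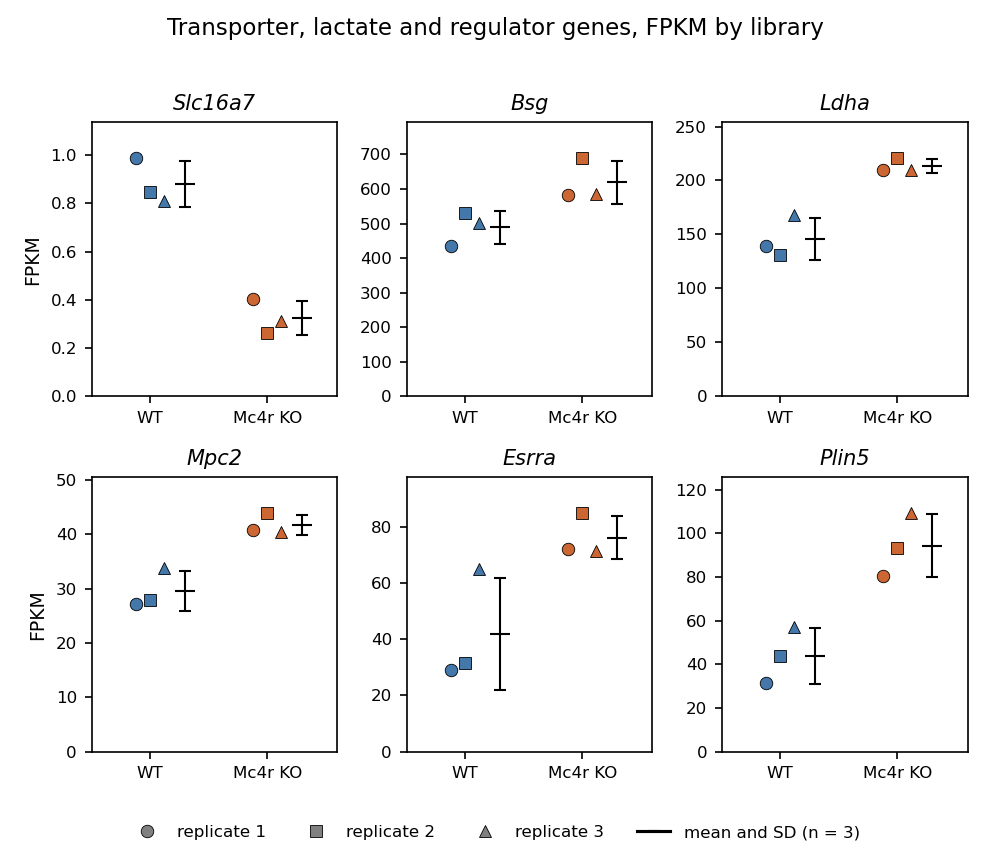
FPKM (vertical axes, linear and starting at 0, with a different range for each gene) of 6 genes in the 3 WT and 3 Mc4r KO libraries, drawn because their groups were apart. They are from the wider ketone list (Slc16a7, Bsg) and the lists of lactate and pyruvate (Ldha, Mpc2), regulators (Esrra) and fasting targets of PPARα (Plin5). Symbols mark the replicate number and bars the mean ± SD. The Mc4r KO libraries are all below the WT libraries for Slc16a7 (12.4% of all genes tested are below in this way). They are all above for the other 5 (14.1% are above). Of the genes of these lists not drawn, some are apart as well, such as Sirt3 and Angptl4, and some overlap, such as Mpc1 and Pparg.

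Pathways that share metabolites with ketone oxidation were described in the same way. Of the 4 genes of lactate and pyruvate, whose products also pass through MCT1, limma called 0, with 2 at an unadjusted p under 0.05 (20.9% of all genes), and voom called 0. Ldha (lactate dehydrogenase A) was at 139, 131 and 168 FPKM in WT and at 210, 221 and 210 FPKM in Mc4r KO libraries, with a log2 fold change of 0.56 and a limma adjusted p of 0.0754. Mpc2, a subunit of the mitochondrial pyruvate carrier, was at 27.1, 27.9 and 33.8 FPKM in WT and at 40.8, 43.9 and 40.5 FPKM in Mc4r KO libraries, with a log2 fold change of 0.50 and a limma adjusted p of 0.0787. The groups of both genes were apart, whereas Mpc1, the partner of Mpc2 in the carrier, had overlapping groups and a log2 fold change of -0.19. Without WT replicate 3 the limma adjusted p was 0.00859 for Ldha and 0.0109 for Mpc2, with fold changes that stayed under the 0.75 needed for a call. Over all alternatives it ran from 0.00859 to 0.260 for Ldha and from 0.0109 to 0.262 for Mpc2.

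All 14 genes of leucine and isoleucine breakdown were tested, since this route ends in acetoacetate and in the substrate of Acat1. Limma called 0 of them, with 5 at an unadjusted p under 0.05 (20.9% of all genes), and voom called 0. Their fold changes were small, from -0.35 to 0.29 with 10 positive and a median of 0.07, which turned to -0.12 with scaling outside the mitochondrial chromosome. Ppm1k, the phosphatase that activates the branched-chain ketoacid dehydrogenase, was lowest at -0.35 (limma adjusted p = 0.172). Mccc2, a carboxylase subunit of the leucine branch, was highest at 0.29 (limma adjusted p = 0.199), and Dbt, the core subunit of the dehydrogenase, was at -0.29 (limma adjusted p = 0.315).

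The target genes of PPARα that respond to fasting in many tissues had 10 of 12 members tested. Voom called 1 of the 10 (314 of all 18035 genes). Limma called 0 of the 10, with 2 at an unadjusted p under 0.05 (20.9% of all genes). One of the pair was Plin5, and the other was Cpt1a, the carnitine acyltransferase of fatty acid entry, with a log2 fold change of -0.43 and a limma adjusted p of 0.179, named after its value was seen. The median log2 fold change was 0.26 with 6 positive, and 0.06 with scaling outside the mitochondrial chromosome. Plin5, which coats the lipid droplets of oxidative tissue, was at 31.4, 43.6 and 57.0 FPKM in WT and at 80.5, 93.2 and 109 FPKM in Mc4r KO libraries. Its groups were apart, and the log2 fold change was 1.13 with a standard error of 0.22 and a limma adjusted p of 0.0718, which ran from 0.0121 with voom to 0.239 without Mc4r KO replicate 2. Plin5 was called under 5 of the 19 alternatives. Pdk4, the kinase that shuts off pyruvate oxidation, was at 54.3, 126 and 108 FPKM in WT and at 115, 121 and 290 FPKM in Mc4r KO libraries. Its groups overlapped, and the log2 fold change was 0.82 with a limma adjusted p of 0.333, or 0.45 without WT replicate 1 and 0.38 without Mc4r KO replicate 3. Angptl4, an inhibitor of lipoprotein lipase, was at 0.820, 2.59 and 2.27 FPKM in WT and at 2.59, 2.88 and 4.42 FPKM in Mc4r KO libraries. WT replicate 1 was far below the others, and the log2 fold change of 0.88 (limma adjusted p = 0.283) was 0.39 without it.

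Of the 8 regulators of oxidative metabolism, limma called 0, with 4 at an unadjusted p under 0.05 (20.9% of all genes). Voom called 1 of the 8 (314 of all 18035 genes). Esrra, the oestrogen-related receptor α, was at 29.0, 31.6 and 64.9 FPKM in WT and at 71.9, 84.8 and 71.4 FPKM in Mc4r KO libraries. WT replicate 3 was close to the Mc4r KO libraries here, unlike for Bdh1, where it was the lowest. The log2 fold change of Esrra was 0.96 with a standard error of 0.29 and a limma adjusted p of 0.135, which ran from 0.00487 without WT replicate 3 to 0.349 without Mc4r KO replicate 2. Esrra was called under 3 of the 19 alternatives. Pparg had a log2 fold change of 0.44 (limma adjusted p = 0.258), and Sirt3, the mitochondrial deacetylase, one of 0.37 (limma adjusted p = 0.194). The median over the list was 0.30 with 6 positive, and 0.10 with scaling outside the mitochondrial chromosome.

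The genes whose levels followed each member most closely were found by Pearson's r of log2(FPKM + 0.1) over the 6 libraries, among 11296 other genes whose mean FPKM reached 1 or more. The 6 libraries share genotype and preparation, and r is given as a description. For Bdh1 they were Rsph3a (0.997), Arpc5l (0.996) and Pigg (0.990), whose ranges over the libraries were much narrower: Rsph3a ran from 2.36 FPKM in WT replicate 3 to 6.51 FPKM in Mc4r KO replicate 2. For Oxct1 they were Ugp2 (0.992), Exoc3 (0.984) and Nop14 (0.975). For Acat1 they were the fatty acid transporter gene Cd36 (0.987), Sars (0.984) and Homer2 (0.982), and Cd36 was lowest in WT replicate 3 at 413 FPKM and highest in Mc4r KO replicate 3 at 579 FPKM. For Slc16a1 they were Ankrd46 (0.995), Atp5f1 of the ATP synthase (0.994) and Cycs, cytochrome c (0.992). Bdh2 was below the level needed.

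Among the members themselves, the levels of Bdh1 and Oxct1 had a Pearson r of 0.33 over the 6 libraries and those of Oxct1 and Acat1 one of 0.19. Bdh1 and Slc16a1 had one of 0.77, which includes the offset between the genotypes.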

How the data were processed

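Polyadenylated RNA of 6 mouse hearts was sequenced in paired ends. After filtering, the authors used HISAT2 (version 2.0.5, build mm10 per the labels) for alignment and featureCounts for counting on genes, and they deposited FPKM for each gene and library. The strand setting and the annotation release are not given in the sources used here; 99.9% of the gene IDs were in GENCODE M21 (GRCm38). FPKM times gene length came in whole multiples of a step for each library (tolerance 0.01, 100% of values), which gave the reads back.

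Median-of-ratios factors computed from the deposited FPKM were all 1, as the values had been scaled before deposit. They were tested as log2(FPKM + 0.1) with limma 3.58.1 in R 4.3.3 (trend, no covariate, two-sided, Benjamini-Hochberg adjustment), for 18035 genes whose mean FPKM reached 0.1. The pseudocount understates the change of low genes. Ratios used the exact permutation test (scipy 1.17.1). The script was tested on simulated data of 17544 genes, 200 of them changed. It called 88.3% of 3-fold and 1.12% of 1.5-fold changes, with 13 false calls. A 1.5-fold change is smaller than a call needs, so a gene not called may still have changed by such an amount. Intervals cover the spread between mice, and read numbers carry counting error as well.

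The members and lists were chosen with earlier results of these data known. The text names the members, their overlapping genes, the 3 genes most like each, and every called gene of a list, or, with none called, the 3 with the largest absolute fold change together with the ketone pathway genes; some results for single genes are left out and not reported here. Alternatives were other pseudocounts, filters, scalings, limma settings, voom on the recovered reads, protein-coding genes only, a replicate block and leaving out each library. Promoter windows are from RefSeq (GRCm38.p6). Figures were drawn with matplotlib 3.10.9.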

Additional observations from a re-analysis of the deposited data

How the results depend on the processing

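The log2 fold change of Bdh1 stayed between 1.53 (without WT replicate 3) and 2.22 (without Mc4r KO replicate 3) under every alternative run, and 0 alternatives called Oxct1, Acat1 or Slc16a1. Oxct1 had values near 0 that turned sign when a library was left out: 0.020 without WT replicate 1 and 0.028 without Mc4r KO replicate 3, with a range from -0.104 to 0.028 over the 6 such fits. It was at -0.24 with quantile normalization and at -0.22 with scaling outside the mitochondrial chromosome. Acat1 was at -0.14 with quantile normalization and at -0.12 with scaling outside the mitochondrial chromosome. Of all genes, limma called 83, against 44 with a pseudocount of 1, 22 without a filter, 147 with a mean FPKM of at least 1, 49 with quantile normalization, 41 with scaling outside the mitochondrial chromosome, 21 without trend, 435 with array weights, 314 with voom and 204 among protein-coding genes only. Leaving out 1 library gave between 7 and 726 calls, and the 726 came without WT replicate 3. The share of calls that were higher was 68.7%, and 39.0% with scaling outside the mitochondrial chromosome, where the median of all genes shifted by -0.18. The number of ketone pathway genes called was 0, and 1 (Slc16a7) with array weights, voom, protein-coding genes only and without WT replicate 3, so it ran from 0 to 1 over the fits that left out a library. The causes of these shifts were not tested. With the replicate number as a block 11 genes were called. The standard error with the block was 0.127 for Bdh1 against 0.390 in the main fit, and 0.099 against 0.111 for Oxct1. It was larger with the block for Acat1 (0.0995 against 0.0863) and Slc16a1 (0.0946 against 0.0820). Same-numbered libraries deviated from their group means with correlations of -0.14, 0.01 and -0.08. With 1 library per number and group, these values do not settle whether the numbers pair the mice.

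Bdh2 passed the filter only without Mc4r KO replicate 2 (log2 fold change -0.26), and its 1 to 10 reads per library limit what can be seen. With 3 mice per group, exact tests cannot go below 0.1. Per-gene values do not separate the Bdh1 starts, or reads of Gm15743 and BC037032 from those of Bdh1 and Oxct1.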
